A study of Rattus norvegicus with 12 samples.

Results

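The 8 genes described here carry out the transport and synthesis work of the renal proximal tubule: the glucose transporters Slc5a1, Slc5a2 and Slc2a2, the gluconeogenic enzymes Pck1 and Fbp1, the creatine and arginine enzymes Gatm and Ass1, and the inositol oxygenase Miox. They were chosen as the probe sets whose single gene symbol in the platform annotation was one of these names, which gave 8 of 14217 named genes and 9 of the 31042 probe sets on the array, 2 for Gatm and 1 for each other gene. RNA from rat tissue had been hybridised to 12 Affymetrix arrays in 4 groups. Kidneys were taken at embryonic day 13 (E13, 3 arrays), at embryonic day 18 (E18, 4 arrays) and at week 4 (Wk4, 3 arrays), and the embryonic kidneys were processed straight after dissection. The fourth group (2 arrays), called recombined tissue here, was made of unbranched ureteric buds formed in vitro and joined to metanephric mesenchyme, and had been kept in culture for 6 days. The labels name no strain, sex, genetic change or drug for any group, and do not say whether the arrays of a group came from separate animals or cultures. P-values therefore measure only the spread between these arrays, which may be technical.

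The proximal tubule takes glucose and other solutes back from the filtrate. Sodium-coupled carriers, Slc5a2 (SGLT2) in the early and Slc5a1 (SGLT1) in the later segments, move glucose across the apical membrane, and Slc2a2 (GLUT2) releases it at the basolateral side. The same cells make glucose from lactate and glutamine, make arginine from citrulline, make the creatine precursor guanidinoacetate, and break down inositol, and most of these functions mature late in development. The nephron, with its proximal tubule, forms from the metanephric mesenchyme, and the ureteric bud forms the collecting ducts. The study's design set out to place recombined tissue against early, late and finished kidney, with a 3-fold difference as its measure of change.

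Since most of these genes changed together with stage, the 250 bases before each gene's start were read from RefSeq (build GRCr8), which held a promoter for 8 of the 8 genes. The letters searched, on both strands, were GTTAAT, part of the site of the factor HNF1, and CAAAGT, the core of the site of HNF4. Also searched were CAAAGTCCA, a longer HNF4 word that contains that core, and TGACGTCA, the full palindromic form of the cAMP response element. GTTAAT was found in 2 of the 8 promoters, Pck1 and Miox, and in 6.46% of all 27457 promoters. The HNF4 core was found in 2 of 8, Slc5a2 and Pck1, and in 12.77% of all promoters. The longer HNF4 word and TGACGTCA were in 0 of 8, and in 0.33% and 1.7% of all promoters. Only exact matches were counted, so other forms of the cAMP response element were not searched for. The 3 promoters with a match are shown from 5′ to 3′ on the strand of the gene, with the matches in capitals.
Pck1: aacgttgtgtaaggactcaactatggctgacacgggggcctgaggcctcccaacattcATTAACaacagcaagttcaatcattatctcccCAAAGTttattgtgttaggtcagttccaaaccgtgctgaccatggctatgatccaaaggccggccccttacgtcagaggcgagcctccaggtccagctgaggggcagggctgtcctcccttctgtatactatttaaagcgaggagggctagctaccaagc
Miox: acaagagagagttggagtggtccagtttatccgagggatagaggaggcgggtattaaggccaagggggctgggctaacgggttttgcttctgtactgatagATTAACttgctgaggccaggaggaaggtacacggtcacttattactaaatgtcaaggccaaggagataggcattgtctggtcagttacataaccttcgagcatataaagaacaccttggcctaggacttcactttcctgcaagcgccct
Slc5a2: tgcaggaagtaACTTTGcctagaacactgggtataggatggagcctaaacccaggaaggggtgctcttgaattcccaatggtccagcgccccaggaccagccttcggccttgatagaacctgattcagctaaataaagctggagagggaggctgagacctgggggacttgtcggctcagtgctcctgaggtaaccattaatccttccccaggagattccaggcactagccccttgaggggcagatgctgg
The Pck1 window lies at chr3:182348322-182348571 on the plus strand. It holds GTTAAT in reverse, as ATTAAC, with its first base at -192 from the start, and CAAAGT at -160. The Miox window, chr7:122284410-122284659 on the plus strand, holds ATTAAC at -149. The Slc5a2 window, chr1:192277371-192277620 on the plus strand, holds the HNF4 core in reverse, as ACTTTG, at -239. These matches describe the letters only.

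The deposited values are probe set signals on a linear scale, scaled by the authors to the same trimmed mean on every array, and the array medians lay between 799 and 1020. Differences are given on the scale log2(signal + 271), first group minus second, with their standard error (SE) from limma. The added 271, the 25th percentile of all values, makes changes of dim genes look smaller, so for the steps between stages the ratio of mean signals is given beside them. Slc5a1, Slc5a2, Slc2a2, Fbp1 and Pck1 were under the 40th percentile of the array on all E13 and recombined arrays, so a ratio against those groups rests on very dim signals and is neither an exact fold nor a bound. Calls needed a change of 3-fold or more and an adjusted p below 0.05. To be tested, a probe set had to exceed the 40th percentile of its array, a signal of 503 to 671, on at least 2 arrays. Of the 9 probe sets, 8 passed, 1 per gene, and 22599 passed in all. The summed signal of 11 proximal tubule markers (Lrp2, Cubn, Slc34a1 and others) ran from 5638 to 7224 at E13 and from 50202 to 65341 at E18. It ran from 655208 to 735436 at Wk4 and from 13460 to 15538 in recombined tissue. These markers were chosen with earlier results of these data known. Their sums are a description and no independent check of the labels.

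The genes of this set climbed in both steps of kidney development and stood near their E13 levels in recombined tissue. Between E13 and E18, 7 of the 8 tested probe sets were called higher and 0 lower, with a median difference of 2.49, against -0.02 over all probe sets tested. Of all probe sets, 1.94% were called higher and 0.412% lower. Between E18 and Wk4, 7 of 8 were again called higher and 0 lower, with a median of 3.65 against -0.12, where 5.76% of all probe sets were called higher and 5.43% lower. Over the whole span from E13 to Wk4, 7 of 8 were called higher, with a median of 6.78 against -0.11, where 9.4% were called higher and 8.47% lower. These 3 comparisons share arrays with one another. In each of the 3, the signals of the 2 groups did not overlap for 8 of the 8 probe sets, including Slc5a1, tested only through Wk4. The share of all probe sets without overlap was not counted, so nothing is read from this number. With a pseudocount 4 times as large, the count from E13 to E18 fell to 4. In whole tissue, more proximal tubule cells and more RNA per cell cannot be told apart.

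**Figure D1:**
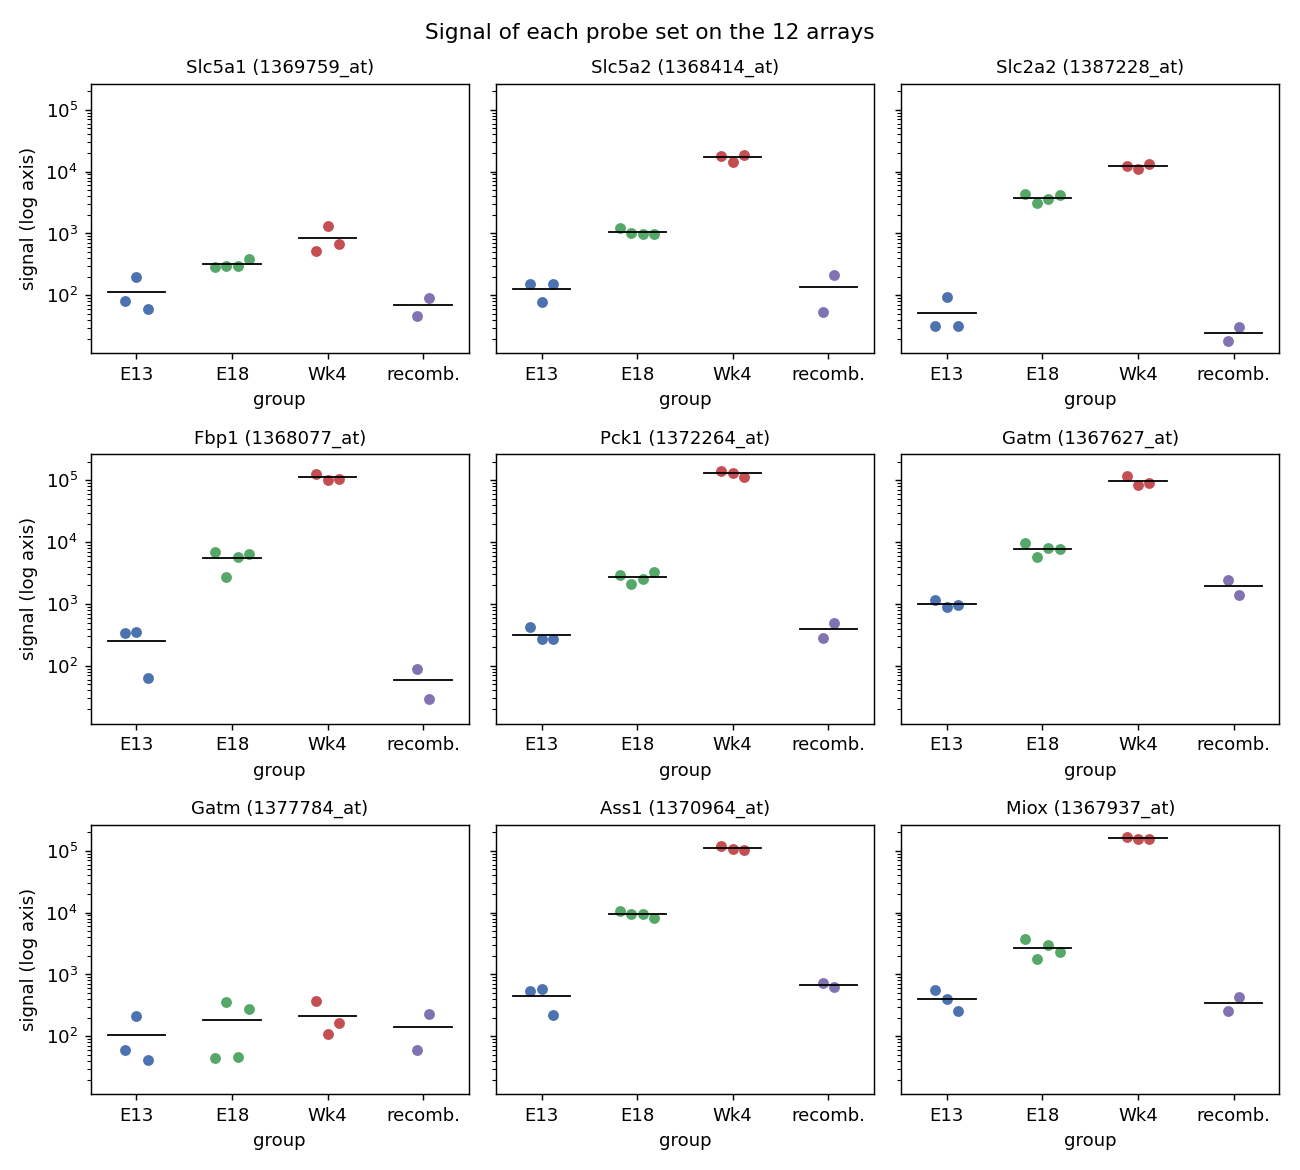
Signal (log axis) of the 9 probe sets of the 8 genes on the 12 arrays, in 1 panel per probe set, with 1 point per array (E13, E18 and Wk4 with 3, 4 and 3 arrays, recombined with 2) and a line at the group mean. The 3 Wk4 arrays lie above all others in 8 panels; in the panel of the second Gatm probe set (1377784_at) the groups overlap, with no signal above 377.

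Slc5a2 (probe set 1368414_at), the low-affinity apical glucose carrier, had signals of 152, 77.7 and 150.0 at E13, of 1210.4, 1031, 965 and 985 at E18, of 18251, 14155.5 and 18609 at Wk4, and of 54.1 and 215 in recombined tissue. E18 and Wk4 each stood apart from all other groups, while the E13 and recombined arrays overlapped. The difference was 1.73 ± 0.18 (SE) from E13 to E18 (adjusted p = 6.3e-06, 8.29-fold in mean signal) and 3.71 ± 0.18 from E18 to Wk4 (adjusted p = 4.03e-10, 16.2-fold). Slc2a2 (1387228_at), the basolateral glucose exit, differed in its timing. Its signals were 32.0, 93.3 and 31.3 at E13, 4344, 3077, 3639 and 4159 at E18, 12514, 11098 and 13261 at Wk4, and 18.2 and 30.4 in recombined tissue. The larger step came before birth, 3.65 ± 0.15 (adjusted p = 8.93e-10, with mean signals of 52.2 and 3805), and the step to Wk4 was 1.63 ± 0.15 (adjusted p = 4.28e-07, 3.23-fold). That second step was close to the 3-fold limit: it was 1.54 without E18 replicate 2, 1.58 without Wk4 replicate 3 and 1.46 with the larger pseudocount, and was not called in those 3 settings.

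Slc5a1 (1369759_at), the high-affinity apical carrier, was dim on most arrays. It read 81.5, 199 and 59.5 at E13, 286, 297, 301 and 381 at E18, 523, 1342 and 681 at Wk4, and 45.8 and 91.4 in recombined tissue. The 3 stages followed the same order as for the other genes, with no overlap between them, but the probe set exceeded the 40th percentile only on 2 of the 3 Wk4 arrays, so it was tested only because of that group. No stage comparison was called: the difference was 0.63 ± 0.25 from E13 to E18 (adjusted p = 0.105), 0.87 ± 0.25 from E18 to Wk4 (adjusted p = 0.00986) and 1.49 ± 0.27 from E13 to Wk4 (adjusted p = 0.000245), the last 2 under 3-fold on this scale. In mean signal the span from E13 to Wk4 was 7.48-fold, and without a pseudocount it was 2.98 on the log2 scale and was called. Leaving out E13 replicate 2 (1.65) or Wk4 replicate 1 (1.71) also put it past the limit. Wk4 replicate 2 had the highest signal of the 3, 1342, and without that array or without replicate 3 the probe set was not tested at all.

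Pck1 and Fbp1, which catalyse steps that commit carbon to glucose, reached Wk4 signals above the 99th percentile of their arrays. Pck1 (1372264_at), the cytosolic phosphoenolpyruvate carboxykinase, had signals of 422, 269 and 268 at E13, of 2947, 2114, 2534 and 3326 at E18, of 142219, 133312 and 114144 at Wk4, and of 286 and 494 in recombined tissue. Most of its rise came after E18: 2.34 ± 0.17 from E13 to E18 (adjusted p = 2.37e-07, 8.55-fold) and 5.45 ± 0.17 from E18 to Wk4 (adjusted p = 9.42e-12, 47.6-fold). Fbp1 (1368077_at), the fructose bisphosphatase, had 341, 346 and 63.8 at E13, 6975, 2739.8, 5826 and 6492 at E18, 128470, 102082 and 103606 at Wk4, and 87.7 and 29.2 in recombined tissue. Its 2 steps were 3.45 ± 0.28 (adjusted p = 7.12e-07, 22.0-fold) and 4.34 ± 0.28 (adjusted p = 8.29e-09, 20.2-fold). At E13 and E18 Fbp1 was the most uneven gene of the set on the log2 scale, with E13 replicate 3 and E18 replicate 2 well below the other arrays of their stages.

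Gatm, the mitochondrial amidinotransferase that makes guanidinoacetate from arginine and glycine, was the only gene of the set above the 40th percentile on every array. Its brighter probe set (1367627_at) read 1175, 883 and 966 at E13, 9604, 5821, 7998 and 7694 at E18, 119349, 83314 and 89384 at Wk4, and 2437 and 1409.8 in recombined tissue. The steps were 2.64 ± 0.19 (adjusted p = 2.48e-07, 7.72-fold) and 3.60 ± 0.19 (adjusted p = 1.14e-09, 12.5-fold). The second Gatm probe set (1377784_at) showed none of this. Its signals ran from 41.4 to 216 at E13, from 44.9 to 354 at E18, from 109.5 to 377 at Wk4 and from 59.0 to 229 in recombined tissue, it was under the 40th percentile on every array, and it was not tested. The 2 probe sets of Gatm therefore disagree, and what the dim one detects was not tested. Ass1 (1370964_at), which joins citrulline and aspartate on the way to arginine, had 534, 577 and 222 at E13, 10629.9, 9679, 9609 and 8068 at E18, 121104, 106686 and 105115 at Wk4, and 728 and 634 in recombined tissue. Its E18 arrays were tight, and its steps were nearly equal: 3.81 ± 0.17 (adjusted p = 1.93e-09, 21.4-fold) and 3.51 ± 0.17 (adjusted p = 4.57e-10, 11.7-fold).

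Miox (1367937_at), which cleaves inositol to glucuronate and is known as a kidney enzyme, rose mostly after E18. It read 559.9, 407 and 258 at E13, 3789, 1777, 3016 and 2344 at E18, 168210, 154600 and 155294 at Wk4, and 255 and 425 in recombined tissue. Every E18 array lay above every E13 array and far under every Wk4 array. The difference was 2.12 ± 0.21 from E13 to E18 (adjusted p = 5.47e-06, 6.69-fold) and 5.78 ± 0.21 from E18 to Wk4 (adjusted p = 4.18e-11, 58.3-fold). From E13 to Wk4 its difference was 7.90 ± 0.23, beside 7.79 ± 0.30 for Fbp1 and 7.79 ± 0.18 for Pck1.

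**Figure D2:**
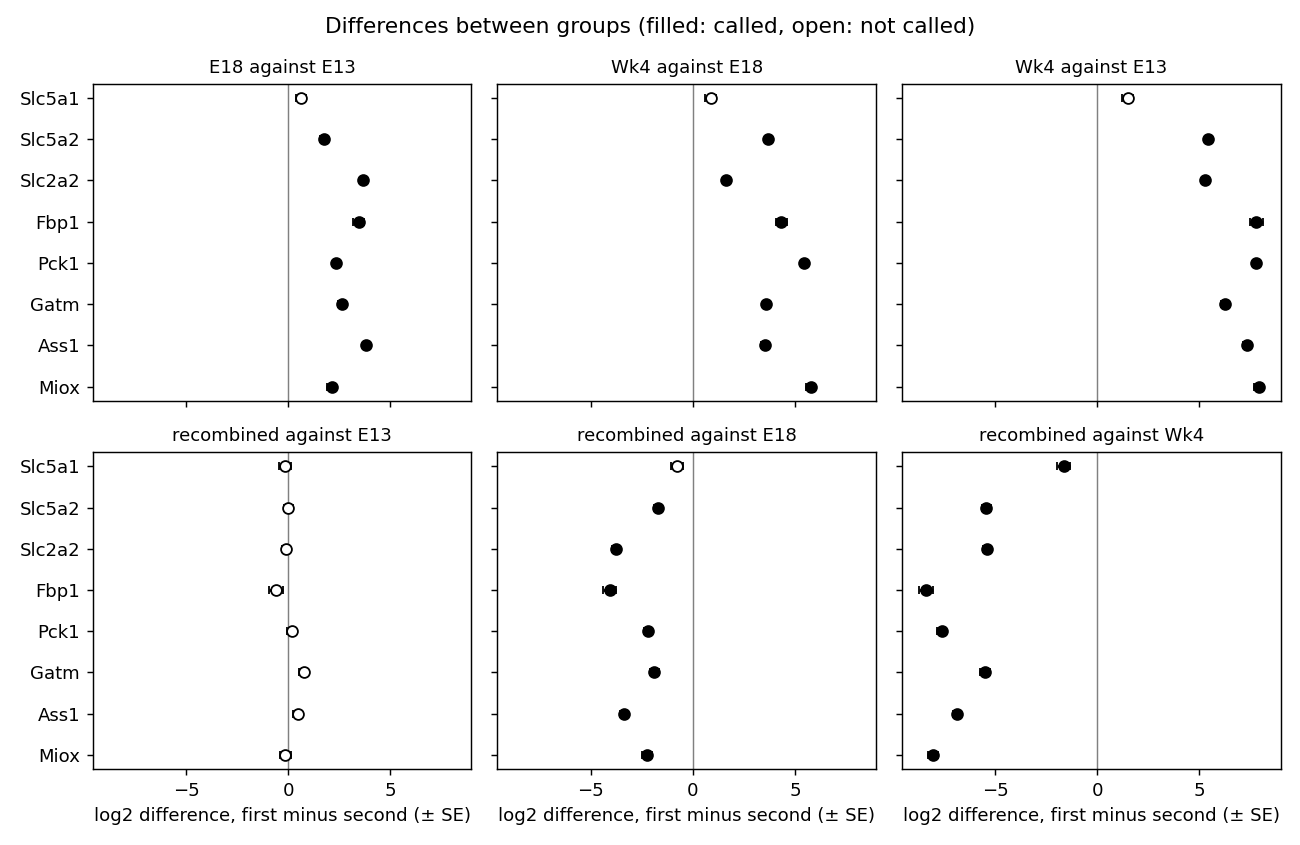
Difference on the log2(signal + 271) scale, first group minus second, with its SE, for the 8 tested probe sets in the 6 comparisons; filled points were called and open points were not. From E13 to E18 and from E18 to Wk4 7 of 8 points are filled on the right, in recombined tissue against E13 0 of 8 are filled, and against Wk4 8 of 8 are filled on the left.

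The genes differed in when they rose. Expressed as the share of its own log2 rise from E13 to Wk4 that was reached at E18, Slc2a2 was at 69.1% (64.0% to 72.7% over the 4 arrays) and Ass1 at 52.0% (49.0% to 54.3%). Fbp1 stood at 44.3%, Gatm at 42.3% and Slc5a1 at 42.0%, with arrays from 33.2% to 52.3%. On this scale the lowest shares were those of Slc5a2, 31.9% (30.2% to 35.0%), Pck1, 30.0% (26.0% to 33.6%), and Miox, 26.9% (20.5% to 33.0%). The array ranges of Slc2a2 and Ass1 lay apart from each other and above those of Slc5a2, Pck1 and Miox, while the ranges of those last 3 overlapped. The basolateral glucose carrier Slc2a2 was thus further along at E18 than the apical carrier Slc5a2 on every array. Of the gluconeogenic enzymes, Fbp1 had the higher mean share and Pck1 the lower one, but their ranges met (from 33.2% for Fbp1 and up to 33.6% for Pck1). The median over the 8 genes was 42.1%, beside 41.1% over the 11 proximal tubule markers, which ran from 11.9% for Slc22a8 to 66.9% for Lrp2. On the linear scale the E18 mean was 37.3% of the Wk4 mean for Slc5a1, 31.0% for Slc2a2, 8.56% for Ass1, 7.99% for Gatm, 6.16% for Slc5a2, 4.95% for Fbp1, 2.10% for Pck1 and 1.71% for Miox. These shares are descriptions, with no test. The log2 shares depend on the pseudocount, which exceeded the E13 means of Slc5a1 (113), Slc5a2 (126), Slc2a2 (52.2) and Fbp1 (250). For Slc5a2 the ratio of mean signals to E13 was 8.29 at E18 and 134 at Wk4. For Pck1 it was 8.55 and 407. By these ratios Slc5a2 was further along at E18 than Pck1, so its place among the lowest shares is not settled.

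**Figure D3:**
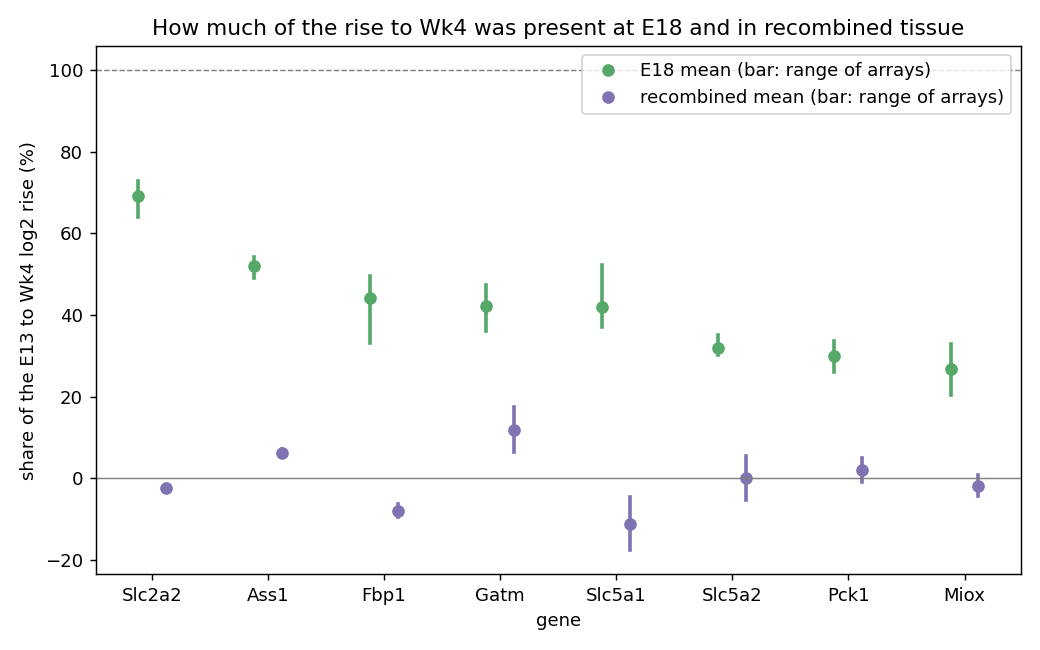
Share (%) of each gene's log2 rise from E13 (0) to Wk4 (100) that was present at E18 (n = 4) and in recombined tissue (n = 2); points are means and bars the range of the arrays. At E18 the shares run from 26.9% for Miox to 69.1% for Slc2a2, and in recombined tissue from -11.1% for Slc5a1 to 11.9% for Gatm.

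Set in order of size, neighbouring rises often could not be separated by their arrays. From E13 to E18 the order was Ass1, Slc2a2, Fbp1, Gatm, Pck1, Miox, Slc5a2 and Slc5a1, and the array ranges of neighbours were apart only between Slc5a2 and Slc5a1 (difference of rises 1.11 ± 0.27 SE). From E18 to Wk4 the order was Miox, Pck1, Fbp1, Slc5a2, Gatm, Ass1, Slc2a2 and Slc5a1. Here Pck1 was apart from Fbp1 (1.11 ± 0.21), Fbp1 from Slc5a2 (0.64 ± 0.31) and Ass1 from Slc2a2 (1.88 ± 0.17). The order Miox, Fbp1, Pck1, Ass1, Gatm, Slc5a2, Slc2a2 and Slc5a1 held from E13 to Wk4, with gaps after Ass1 (1.08 ± 0.27), Gatm (0.80 ± 0.15) and Slc2a2 (3.79 ± 0.38). These orders hold on the scale with the pseudocount, which makes changes of dim genes look smaller. In ratio of mean signals, Gatm rose less than Slc5a2 and Slc2a2 from E13 to Wk4. The E13 mean was 1.04% of the Wk4 mean for Gatm, 0.744% for Slc5a2 and 0.425% for Slc2a2. From E13 to E18 that ratio was larger for Slc2a2 (mean signals 52.2 and 3805) than for Ass1 (444 and 9496). Slc5a2 and Slc2a2 were very dim at E13, so these ratios are not exact folds.

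Within E18 the genes tended to deviate together. E18 replicate 2 was the lowest array for 5 of the 8 genes, with a median deviation from the E18 mean of -0.29, and replicate 1 was the highest for 6 of 8, with a median of 0.18. In the same replicate 2 the proximal tubule markers had a median deviation of -0.17, but it was lowest for 5 of these 11 and replicate 4 for 6. The 8 macrophage markers had a median of 0.21 in replicate 2. Those of hepatocytes, skeletal muscle, loop and distal tubule, and endothelium were 0.23, 0.18, 0.12 and 0.09. Collecting duct markers were at -0.01 and the nephron progenitor marker at -0.11. At E13, replicate 3 was the lowest for 6 of 8 genes. Whether tissue composition had a part in these deviations was not tested.

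In recombined tissue, after 6 days of culture, the genes were near their E13 levels and far under E18. Against E13, 0 of 8 probe sets were called by limma (1 with an adjusted p under 0.05, 2 with an unadjusted p under 0.05), and the median difference was -0.06 against -0.00 over all probe sets. Over all probe sets 3.95% were called higher and 0.912% lower, that is 892 and 206, a split that became 705 and 318 when each array was centred on its median. Gatm was 0.74 ± 0.23 (SE) above E13 (adjusted p = 0.0225, 1.91-fold in mean signal) and Ass1 0.45 ± 0.20 above it (adjusted p = 0.108), and for both the recombined arrays lay above the 3 E13 arrays. Slc2a2 lay below them on both arrays, with a difference of -0.12 ± 0.18 (adjusted p = 0.655). The share of all probe sets without overlap was not counted in this comparison either, so nothing is read from these positions. For the other 5 genes the groups overlapped: the differences were -0.61 ± 0.33 for Fbp1 (adjusted p = 0.188, a ratio of mean signals of 0.234), -0.17 ± 0.30 for Slc5a1, 0.01 ± 0.21 for Slc5a2, 0.16 ± 0.20 for Pck1 and -0.14 ± 0.25 for Miox. Without a pseudocount Fbp1 was at -1.95 and was called lower. The signs of Slc5a2, Pck1 and Miox changed between settings, Slc5a2 and Pck1 among them when arrays were centred on their medians.

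Against E18, 7 of 8 probe sets were called lower in recombined tissue and 0 higher, with a median difference of -2.23 against -0.00, where 1.67% of all probe sets were called lower and 2.74% higher. The largest differences were those of Fbp1, -4.06 ± 0.32 (SE) (adjusted p = 5.34e-07), Slc2a2, -3.78 ± 0.17 (adjusted p = 3.32e-09), and Ass1, -3.35 ± 0.19 (adjusted p = 3.12e-08). The other called genes were Miox at -2.27, Pck1 at -2.18, Gatm at -1.90 and Slc5a2 at -1.73, and Slc5a1 was not called at -0.79 ± 0.29 (adjusted p = 0.0548), with mean signals of 68.6 and 316 that were both under the 40th percentile. With the pseudocount 4 times as large the count was 3. Leaving out recombined replicate 1 put Slc5a2 at -1.44 and leaving out replicate 2 put Gatm at -1.55, neither of them called. Against Wk4, 8 of 8 were called lower, from -8.40 ± 0.33 for Fbp1 to -1.66 ± 0.30 for Slc5a1 (adjusted p = 0.000345), with a median of -6.18 against 0.19, where 7.32% of all probe sets were called lower and 7.88% higher. Slc5a1 was tested only through 2 of the 3 Wk4 arrays, the high group here, so its call supports nothing beyond that choice, and it was at -1.56 and not called without recombined replicate 1. The E13, E18 and Wk4 comparisons use the same 2 recombined arrays.

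On the scale from E13 (0%) to Wk4 (100%), recombined tissue was at 11.9% for Gatm (6.42% and 17.4% on the 2 arrays), at 6.17% for Ass1 and at 2.0% for Pck1. The other 5 genes lay between -11.1% and 0.093%. The median over the 8 genes was -0.86%, and over the 11 proximal tubule markers 8.10%, from -3.74% to 38.1%. Of those markers, 2 of 11 were called higher in recombined tissue than at E13, beside 3.95% of all probe sets. They were Slc13a3, a dicarboxylate carrier, by 2.34 ± 0.24 (SE) (adjusted p = 5.05e-06), and Anpep, an aminopeptidase of the brush border, by 2.17 ± 0.15 (adjusted p = 1.64e-07). Anpep read 5581 and 6406 in recombined tissue, beside 5815 to 7838 at E18, and Slc13a3 read 962 and 1567 beside 1333 to 2759.7. Against E18, 5 of the 11 markers were called lower and 0 higher, with a median of -1.32, beside 1.67% and 2.74% of all probe sets. The 5 were Pdzk1 (-4.63), Lrp2 (-3.30), Slc34a1 (-3.07), Cubn (-3.03) and Ggt1 (-2.43). Slc13a3 and Anpep, singled out after their values were seen, overlapped their E18 range on 1 array each, in the same RNA in which Slc5a1, Slc5a2, Slc2a2, Fbp1, Pck1 and Miox did not exceed the 40th percentile.

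Markers of other cell types moved with these comparisons. The summed signal of 8 macrophage markers was 4486 to 6088 at E13, 13261 to 17402 at E18, 35573 to 39153 at Wk4, and 101352 and 197301 in recombined tissue. There 8 of 8 were called higher than at E13, beside 3.95% of all probe sets. The higher sum was that of recombined replicate 1, with 8 of 8 genes higher there. The 5 endothelial markers summed to 24498 to 31359 at E13 and to 3553 and 10916 in recombined tissue, and the 4 measured skeletal muscle markers to 2455 to 3051 and to 7637 and 12670. Loop of Henle and distal tubule markers summed to 982 to 1519 at E13, 20945 to 28490.5 at E18, 231058 to 258106 at Wk4 and 1274 and 2105 in recombined tissue. Collecting duct markers ran from 3132 to 4544 at E13, from 13815 to 25051 at E18 from 52802 to 59395 at Wk4, and read 1979 and 4148 in recombined tissue. Hepatocyte markers are of interest because liver also expresses several genes of the set. Of the 9 measured, 5 were tested, and their 9 signals summed to 2232 to 3484 at E18 and to 6056 to 13923 at Wk4. From E18 to Wk4, 2 of 5 were called higher, beside 5.76% of all probe sets. They were Apoh (mean signals 190 and 2486) and Fga (181 and 1686), both dim at E18. They were also dim at E13 (258 for Apoh and 82.7 for Fga) and in recombined tissue (189 and 39.7). All these means outside Wk4 lay under the 40th percentile. Both were thus probably tested only through Wk4, the high group here, and their calls then support nothing beyond that choice. Alb, with 2041 ± 2412 (SD, n = 3) at Wk4, was not called (limma adjusted p = 0.059). The part of hepatocyte RNA in the results was not tested. At Wk4, 7 of 8 genes of the set were called higher than at E18 with all arrays, and 6 to 7 with any 1 array left out. That count cannot speak to hepatocyte RNA present on the other Wk4 arrays. Wk4 replicate 1 had the highest median deviation from the Wk4 mean for the hepatocyte markers (0.70), the 8 genes (0.12) and the proximal tubule markers (0.05).

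A search of 11802 other genes for the profiles most like each member, by the root mean square difference (RMS) over the 12 arrays between log2 profiles centred on E13, gave 2 neighbours for each. Pck1 was nearest to Hpd, a tyrosine catabolic dioxygenase (RMS 0.23), and Napsa, an aspartic protease (0.28). Miox was nearest to Acsm2, an acyl-CoA synthetase (0.29), and again Napsa (0.35). Fbp1 and Ass1 were both nearest to Hnf4a, a nuclear receptor (0.50 and 0.38), followed by Dao, a D-amino acid oxidase (0.53), and Agxt2, an aminotransferase (0.44). The transporters had other neighbours. Slc2a2 was nearest to Lrp2, the endocytic receptor megalin (0.41), and C5h1orf210 (0.42), and Slc5a2 to Klk1, tissue kallikrein (0.19), and Slc17a3, an organic anion carrier (0.21). Gatm was nearest to Slc3a1, the heavy chain of the cystine carrier (0.32), and Apom (0.37), and the dim Slc5a1 to Kdf1 (0.21) and Gpx2 (0.23). Within the set Pck1 and Miox were the closest pair (0.28), followed by Fbp1 and Ass1 (0.62). Slc5a2 and Gatm were each other's nearest gene of the set (0.79). The RMS values are on the scale with the pseudocount, which makes changes of dim genes look smaller. A small RMS on it need not mean a similar ratio of signals. From E13 to E18 the mean signal of Hnf4a, very dim at E13, went from 35.6 to 4820. That of Fbp1 went from 250 to 5508 and that of Ass1 from 444 to 9496, both smaller ratios. All points share the same 12 arrays, and these values are a description.

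Of the other genes of the same pathways, 69 of 85 listed were tested. From E13 to E18, 5 were called higher and 1 lower, with a median difference of 0.46, where 1.94% of all probe sets were called higher and 0.412% lower. They were Hnf4a (4.04 ± 0.15 SE), Slc16a12, a creatine carrier (2.56 ± 0.18), Ckmt1, a mitochondrial creatine kinase (2.26 ± 0.26), Pdzk1ip1, the accessory protein of Slc5a2 (2.25 ± 0.15), and Cryl1, an enzyme of the glucuronate route that follows Miox (1.84 ± 0.21), with Arg1, the cytosolic arginase, lower (-2.13 ± 0.27). From E18 to Wk4, 28 of 69 were called higher and 0 lower, with a median of 1.12, beside 5.76% and 5.43% of all probe sets. From E13 to Wk4 the counts were 34 higher and 2 lower, Arg1 (-3.38) and the glucose carrier Slc2a3 (-1.74), beside 9.4% and 8.47% of all probe sets.

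**Figure D4:**
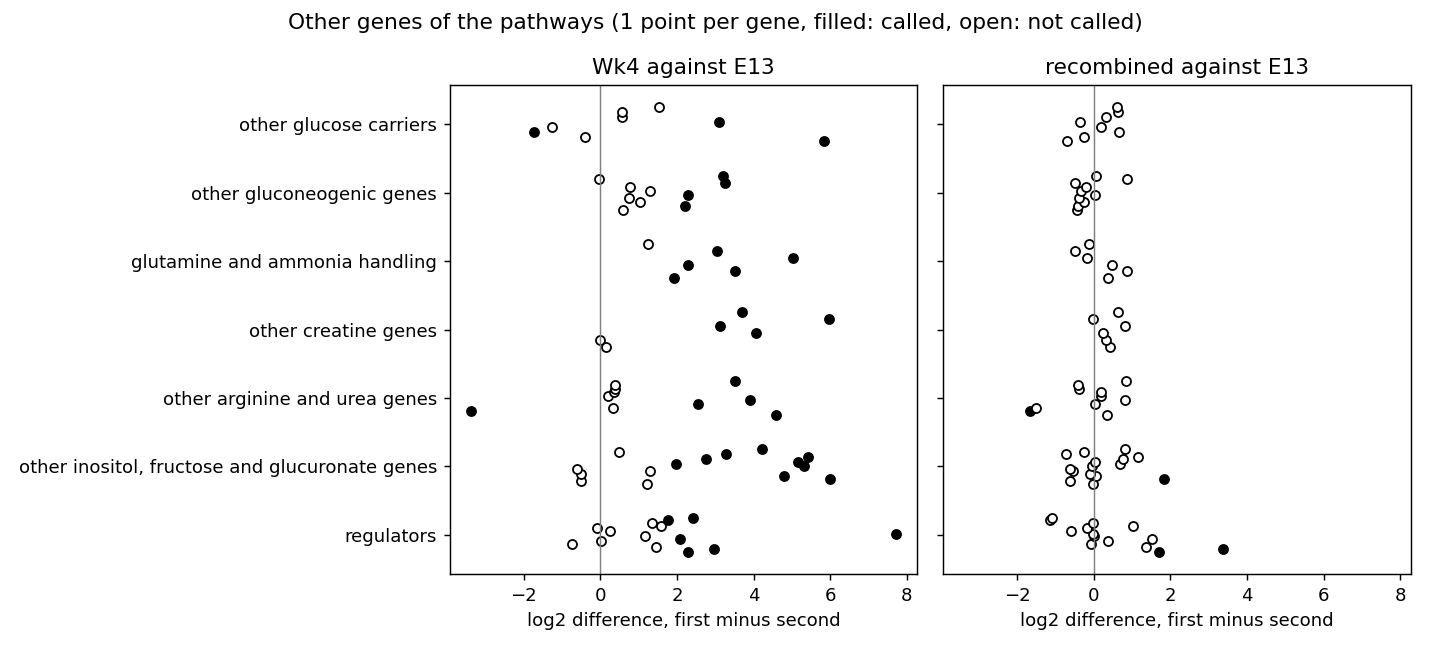
Difference on the log2(signal + 271) scale for the other genes of the pathways, 1 point per tested gene in 7 lists, for Wk4 minus E13 and for recombined tissue minus E13; filled points were called. For Wk4 against E13, 34 of 69 points are filled on the right and 2 on the left, and for recombined tissue against E13 3 are filled on the right and 1 on the left.

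Each list contained genes that rose from E18 to Wk4 and genes that were not called. Among the other glucose carriers 3 of 8 rose, led by Pdzk1ip1 (3.58 ± 0.15 SE), followed by the fructose carrier Slc2a5 (2.63 ± 0.25) and the urate carrier Slc2a9 (1.60 ± 0.24), which exceeded the 40th percentile on 2 Wk4 arrays and no other array and so was tested only through the group where it is high. Pdzk1ip1 is known as the partner of Slc5a2, and its mean signal was 277 at E13, 2334 at E18, 30725 at Wk4 and 66.6 in recombined tissue. Of the other gluconeogenic genes 3 of 10 rose: Pc, pyruvate carboxylase (2.85 ± 0.15), Slc37a4, the glucose phosphate translocase (2.40 ± 0.18), and the aminotransferase Got1 (1.65 ± 0.17). Pck2, the mitochondrial counterpart of Pck1, was singled out after its values were seen. It was not called, at -0.62 ± 0.15 from E18 to Wk4 (adjusted p = 0.00321), where Pck1 was at 5.45. In the glutamine and ammonia list 3 of 6 rose: the glutamate carrier Slc1a1 (3.73 ± 0.20), glutamine synthetase Glul (2.95 ± 0.17) and the glutamine carrier Slc38a3 (2.61 ± 0.29). Slc38a3 exceeded the 40th percentile only on 1 E18 array and the 3 Wk4 arrays. It too was tested only through the group where it is high.

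Of the other creatine genes 4 of 6 rose: Slc16a12 (3.39 ± 0.18 SE), Gamt, which methylates the product of Gatm to creatine (2.66 ± 0.13), the creatine carrier Slc6a8 (2.65 ± 0.15) and Ckmt1 (1.81 ± 0.26). For arginine and urea 4 of 10 rose: Agmat, an agmatinase (4.06 ± 0.20), Oat, ornithine aminotransferase (3.12 ± 0.14), Ddah1, which breaks down methylated arginines (2.68 ± 0.16), and Asl, which takes the product of Ass1 to arginine (1.92 ± 0.11). For inositol, fructose and glucuronate the count was 8 of 15, with Khk, the fructose kinase (4.80 ± 0.16), and Sord, sorbitol dehydrogenase (4.45 ± 0.15), showing the largest changes. Among 14 regulators 3 rose: Hnf4a (3.68 ± 0.15), the parathyroid hormone receptor Pth1r (1.70 ± 0.16) and Cebpb (1.61 ± 0.24).

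In recombined tissue 65 of the 69 pathway genes were not called against E13. The 3 called higher and 1 called lower are close to the shares over all probe sets, 3.95% and 0.912%, so the count shows nothing about the pathways. Those called higher were the transcription factors Cebpb (3.39 ± 0.29 SE, adjusted p = 1.2e-06) and Cebpa (1.70 ± 0.23, adjusted p = 6.69e-05) and the enzyme Cryl1 (1.83 ± 0.25, adjusted p = 8.69e-05), and Arg1 was called lower (-1.66 ± 0.32, adjusted p = 0.00138). With arrays centred on their medians the split was 2 higher and 2 lower, without Cebpa and with Arg2. Cebpb and Cebpa are also active in macrophages, whose markers were high in the same RNA, as given above, and the part of those cells was not tested. Hnf4a, which is known to control proximal tubule genes, had mean signals of 35.6 ± 14.0 (SD, n = 3) at E13, 4820.5 ± 870.3 (n = 4) at E18 and 64118 ± 4067 (n = 3) at Wk4. It read 30.6 and 37.2 in recombined tissue, a difference from E13 of -0.01 ± 0.17 (SE, adjusted p = 0.982). Against E18, 7 pathway genes were lower, Hnf4a (-4.05 ± 0.17), Pdzk1ip1 (-2.94 ± 0.17), Slc16a12 (-2.58 ± 0.21), the coactivator Ppargc1a (-2.12 ± 0.16), Ckmt1 (-2.01 ± 0.30), Pth1r (-1.81 ± 0.18) and Impa2, an inositol phosphatase (-1.77 ± 0.19), and 1, Cebpb, was higher (2.02), beside 1.67% and 2.74% of all probe sets. Against Wk4, 32 were lower and 2 higher, Slc2a3 (2.40) and Arg1 (1.72), beside 7.32% and 7.88% of all probe sets.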

How the data were processed

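The labels' protocols describe biotin-labelled cRNA made from total RNA. Signal intensity per probe set, on a linear scale, is what the authors deposited; the submitters' processing notes name GCOS, whose version and algorithm are unknown here. The mean without the lowest and highest 2% was 2500.0 on all 12 arrays, so each array had been scaled globally, which hides any change in total RNA per cell. No 2 arrays were identical.

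All tests left out 57 control probe sets. Values were used as log2(signal + 271), and 8443 probe sets not above their array's 40th percentile on 2 arrays were removed. All 12 arrays were fitted together (R 4.3.3, limma 3.58.1: lmFit, then eBayes with trend; 8 residual degrees of freedom), with two-sided tests and Benjamini-Hochberg adjustment over 22599 probe sets in each of 6 comparisons.

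Gene names came from the platform annotation: a single symbol stood on 20826 probe sets, more than 1 on 436 and no symbol on 9780, and 20758 matched the current rat RefSeq table by gene ID. A gene with several kept probe sets was represented by the brightest. Of 85 pathway genes listed, 16 were not tested here. The members, lists and marker lists were chosen with earlier results of these data known. From the lists the 2 called genes with the largest change in a comparison were named, with others only to complete a short count; for the comparisons of Wk4 with E13 and with recombined tissue most are given as counts. Alternatives covered pseudocount, normalization, filter, variance model, arrays in the fit, replicate block, fold limit, each array left out, and a covariate for 2 sets of arrays. The sets, known from an earlier look at these data, were E13 replicate 1 with E18 replicates 1 to 3, and the other embryonic arrays. The Wk4 and recombined arrays were placed in the first set by choice. With this covariate Slc5a1 was at 1.62 from E13 to Wk4 and was called, which made 8 of 8. Slc5a1 was tested only through Wk4, the high group here, so its call adds no support. Promoters came from RefSeq.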

Additional observations from a re-analysis of the deposited data

Results flagged for a closer look

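The E18 signals of Slc5a1 were 286, 297, 301 and 381, and the highest, replicate 4, lay apart from the others: its gap to the nearest array was 0.834 of the group's range on the log2 scale, just past the limit for 4 arrays. Chance puts about 1 in 20 groups past it, and the E18 arrays of all 8 tested genes were looked at in this way.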

How the results depend on the processing

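Of the single differences of the 8 genes under the alternatives, 1008 kept direction and call, 14 lost the call, 10 gained it and 10 changed sign. The cause was not tested. All changes of sign were in recombined tissue against E13, where no value was called: Slc5a2 was at -0.17 without a pseudocount, -0.079 with quantile normalization, -0.19 with median centring and -0.071 with the array sets as a covariate, and Pck1 at -0.039 with median centring. With each array left out in turn, Slc5a2 ranged there from -0.28 to 0.29, Pck1 from -0.073 to 0.38 and Miox from -0.35 to 0.060. Median centring shifted the median of all probe sets there by -0.19. Counts of the 8 genes moved by more than 1, or from 0, only with the pseudocount or call rule: without a pseudocount 1 was called in recombined tissue against E13 (Fbp1), with 4 times the pseudocount 4 from E13 to E18 and 3 in recombined tissue against E18, and by adjusted p alone 1 in recombined tissue against E13 (Gatm).

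The pathway count became 8 in recombined tissue against E13 without a pseudocount; with 4 times the pseudocount 2 from E13 to E18, 1 in recombined tissue against E13 and 2 against E18; at 2-fold 15, 11 and 14 in the same order; and by adjusted p alone 36, 26 and 35, with 51 from E18 to Wk4 and 53 in recombined tissue against Wk4. With each array left out in turn, the counts of the 8 genes ranged from 7 to 7 (E18 against E13), 6 to 7 (Wk4 against E18), 7 to 8 (Wk4 against E13), 0 to 0, 6 to 7 and 7 to 8 (recombined tissue against E13, E18 and Wk4), and those of the pathway genes, in this order, from 6 to 6, 25 to 30, 35 to 37, 3 to 5, 7 to 11 and 33 to 35. Same-numbered arrays did not deviate together (median correlation -0.02 over 15 pairs), so numbers do not pair them. Embryonic arrays deviated in sets: E13 replicate 1 correlated with E18 replicates 1, 2 and 3 at 0.31, 0.25 and 0.27 and with replicate 4 at -0.60, while E13 replicates 2 and 3 correlated with E18 replicate 4 at 0.41 and 0.38. With the replicate block the counts stayed at 7, 7, 7, 0, 7 and 8, and those of the pathway genes were 6, 26, 36, 4, 8 and 34. Over all probe sets the calls of the 6 comparisons (531, 2530, 4038, 1098, 997 and 3435) fell to 188, 1421, 2300, 495, 418 and 1877 with 4 times the pseudocount and rose to 4466, 12368, 13705, 7015, 6372 and 11974 by adjusted p alone; without a pseudocount they were 1038, 3990, 1732 and 1594 for E18 against E13, Wk4 against E18 and recombined tissue against E13 and E18, and at 2-fold 1503, 5776, 7867, 2841, 2552 and 6886. Signals under the 40th percentile, as of Slc5a1 before Wk4, limit what can be said of dim probe sets.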
